A study of Arabidopsis thaliana with 16 samples.

Results

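The 45 loci described here make up the jasmonate pathway of Arabidopsis thaliana as listed by locus identifier, out of 32678 loci counted in each library. They were listed by role, with earlier results of these data known. The list holds 12 genes of jasmonate synthesis, the conjugating enzyme JAR1, the receptor subunit COI1, 3 MYC activators, 12 JAZ repressors with their adaptor NINJA, 8 genes of hormone turnover and 7 outputs. All 45 were found in every library. The study measured mRNA in roots and leaves of 25-day-old plants of the pho1-4 background, a knockout of PHO1, the exporter by which roots load phosphate into the xylem. There were 8 groups of 2 libraries, 16 in all.

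The groups in each organ were EXS34 and EXS32, 2 lines of the pho1-4 mutant with a transgene for the EXS domain of PHO1 joined to GFP, KO, the pho1-4 mutant itself, and Compl, the mutant complemented with the PHO1 gene. Every group therefore carries the pho1-4 allele, no plant received a treatment, and no unmutated wild type is among the groups. EXS32 and EXS34 are single transgenic lines, so line and transgene cannot be told apart, and the promoter that drives each transgene is not given in the sources used here. Nothing in the labels ties the 2 libraries of a group to separate plants, and the p-values below therefore cover the spread between these libraries alone, which may be technical.

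The genotypes of the leaf libraries are in doubt. The leaf pair labelled EXS34 has files named for pho1-4, the pair labelled EXS32 has files named for EXS34, the pair labelled KO has files named for the complemented line, and the pair labelled Compl has files named for EXS32. Root labels and root file names match. Both namings keep the same libraries together, so every leaf difference below is a difference between the same 2 pairs under either naming, and only the genotype attached to it changes. Leaf pairs are called here by their labels. A direction between leaf pairs below therefore belongs to the libraries, and the genotypes it sets against each other under the file names follow from the pairs just listed and are repeated where each pair is first described.

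Jasmonate is made from plastid linolenic acid by lipoxygenases (LOX), allene oxide synthase (AOS) and allene oxide cyclases (AOC), and finished in the peroxisome by OPR3, the CoA ligase OPCL1 and the acyl-CoA oxidase ACX1. JAR1 joins it to isoleucine, and the conjugate makes COI1 bind JAZ proteins, whose destruction frees MYC2, MYC3 and MYC4 to switch on a leaf branch that includes the VSP storage proteins, while ORA59 and ERF1 drive a separate branch that includes the PDF1.2 defensins. The pathway is best known for wounding and defence against chewing insects and necrotrophic fungi, and phosphate deficiency is known to raise it in Arabidopsis leaves.

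MYC factors bind the G-box, CACGTG, and its variant AACGTG, and ORA59 and ERF1 bind the GCC box, GCCGCC. In the 250 bases before each annotated start, searched on both strands in TAIR10.1 from RefSeq, the G-box was in 8 of 45 jasmonate promoters, 17.8%, against 6.49% of 27443 protein-coding promoters. The variant was in 11, 24.4%, against 7.54% of all promoters, and the GCC box was in 3, 6.67%, against 1.87% of all promoters. Matches of different motifs may overlap and were counted separately, and a match is a string of letters, not a site shown to be bound. The promoters of 4 genes are printed 5′ to 3′ on the gene's strand, with the matches in capitals, because these genes carry the leaf differences described below or, for PDF1.2a, hold both a GCC box and the variant. JAZ7 is at chr2:14572780-14573029 on the plus strand, AOC1 at chr3:9403529-9403778 on the plus strand, VSP1 at chr5:8509202-8509451 on the minus strand and PDF1.2a at chr5:17907639-17907888 on the minus strand; none of these stretches overlaps an exon of another gene.
JAZ7: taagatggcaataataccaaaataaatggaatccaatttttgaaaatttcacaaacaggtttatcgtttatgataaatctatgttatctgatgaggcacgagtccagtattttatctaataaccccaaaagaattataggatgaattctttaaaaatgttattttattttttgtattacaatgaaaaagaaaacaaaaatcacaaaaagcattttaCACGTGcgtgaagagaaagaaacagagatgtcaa
AOC1: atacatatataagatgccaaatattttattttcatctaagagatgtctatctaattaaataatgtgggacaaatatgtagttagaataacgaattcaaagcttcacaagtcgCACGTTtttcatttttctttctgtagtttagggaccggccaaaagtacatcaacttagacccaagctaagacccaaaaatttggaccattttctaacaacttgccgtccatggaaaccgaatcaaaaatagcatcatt
VSP1: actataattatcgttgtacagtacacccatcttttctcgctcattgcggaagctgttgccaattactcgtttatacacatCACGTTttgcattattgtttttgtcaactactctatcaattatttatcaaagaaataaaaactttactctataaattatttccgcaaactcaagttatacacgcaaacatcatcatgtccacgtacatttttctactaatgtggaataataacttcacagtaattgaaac
PDF1.2a: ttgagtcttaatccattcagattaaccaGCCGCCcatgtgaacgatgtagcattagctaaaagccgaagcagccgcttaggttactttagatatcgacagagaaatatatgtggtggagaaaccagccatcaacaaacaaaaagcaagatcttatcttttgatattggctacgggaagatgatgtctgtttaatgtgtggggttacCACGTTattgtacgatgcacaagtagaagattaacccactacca
JAZ7 held 1 G-box, 34 bases before its start, and the other printed promoters held no G-box. AOC1 and VSP1 each held the variant, read as CACGTT on the gene's strand. Genes with leaf differences described below did not all hold a match. JAZ6 and MYC2 held the variant, and COI1, JAZ9, VSP2, ST2A and JAZ10 held none of these motifs.

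Root libraries held 20139794 to 31405117 gene-assigned reads and leaf libraries 9465995 to 15530134, which leaves low transcripts with a larger counting error in leaves. Values below are reads per 1e+06 gene-assigned reads (CPM) unless said otherwise. The labelled organs held: 5 green-tissue markers summed to 189 to 466 CPM in root libraries and 41809 to 50335 CPM in leaf libraries, and 5 root markers summed to 377 to 755 CPM in root libraries and 0.605 to 2.32 CPM in leaf libraries. Of 5 floral markers, replicate 1 of leaves labelled EXS32 held a sum of 13.1 CPM, the highest of the leaf libraries, with AP1 at 4.45 CPM and SEP3 at 3.19 CPM; its part in the values of that library was not tested. In roots, replicate 1 of Compl stood apart from the other libraries on the first principal component, at -68.3, against -31.8 for replicate 2 of Compl, with the remaining root libraries at -8.89 to 44.7. PHO1 itself stood at 2404 and 1456 CPM in EXS34 roots, 1896 and 1895 CPM in EXS32 roots, 2249 and 1987 CPM in KO roots and 2166 and 2883 CPM in Compl roots. Its read count thus did not separate the root genotypes and does not check their labels. Leaf PHO1 was at 62.4 and 46.8 CPM in the pair labelled EXS34 and 60.1 and 63.6 in that labelled KO, which overlapped. It was at 71.9 and 87.2 CPM in the pair labelled EXS32 and 75.6 and 109 in that labelled Compl, which also overlapped. Which leaf naming these values follow was not tested.

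Roots and leaves held different copies of the same steps, as the heat map of the 16 libraries shows: LOX2, AOC1, AOC2, JAZ9, CORI3 and the PDF1.2 defensins were leaf transcripts, and AOC3, JAZ4, CYP94B1 and ST2A were root-rich. In these bulk samples fewer cells of a type and less RNA per cell cannot be told apart. Of 44 members tested between organs, 14 were higher and 24 lower in roots than in leaves, against 81.6% of all genes called in that comparison and 43.1% and 38.4% called in those directions by edgeR's quasi-likelihood test. The total of calls, 86.4% of the members tested, is therefore close to the background, and the values describe which copies each organ holds. By direction the members were called lower in roots more often than higher, whereas over all genes higher was the more frequent. The median log2 difference of the 44 members was -0.89, against 0.06 over all genes tested. Scaling by library size alone instead of TMM moves the median of all genes by 0.56 on the log2 scale towards roots, so differences of that size depend on the scaling.

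**Figure D1:**
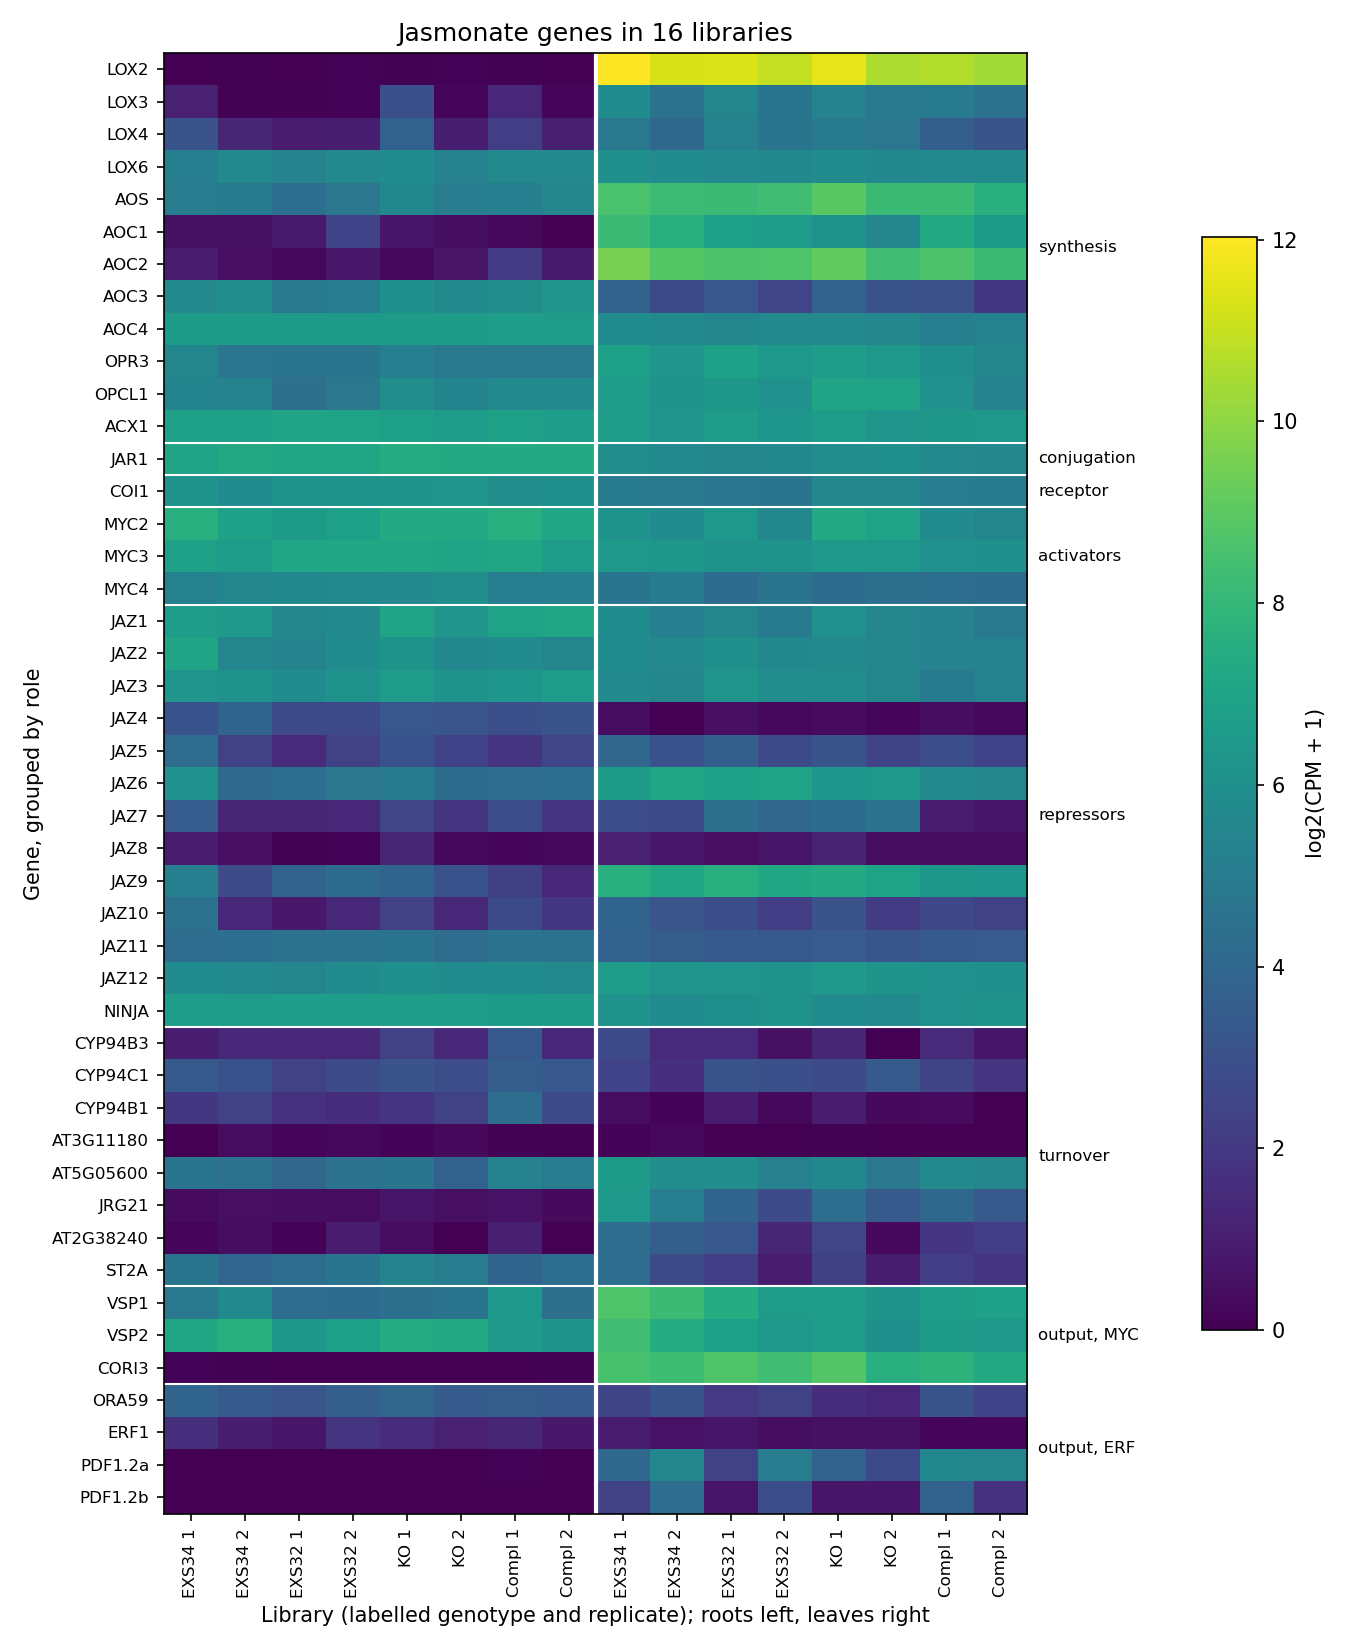
Level of the 45 jasmonate genes, as log2(CPM + 1) by colour, in 8 root libraries (left of the white line) and 8 leaf libraries (right of it), with genes grouped by role down the page and libraries by labelled genotype and replicate. LOX2, CORI3 and the PDF1.2 genes are dark in every root library, with 0 to 3 reads each, while ACX1 and JAZ12 have similar colours in all libraries.

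LOX2, the wound-response lipoxygenase of leaf plastids, was nearly absent from roots. It had 0 to 3 reads in each root library, 8 in all, and 1327 to 4191 CPM in leaves with a median of 2249 CPM. Its leaf level was 4191 and 2519 CPM in leaves labelled EXS34, 2650 and 1979 in leaves labelled EXS32, 3110 and 1519 in leaves labelled KO, and 1585 and 1327 in leaves labelled Compl. No root library came near any leaf library, and within leaves the Compl-labelled pair lay low with the KO-labelled replicate 2 between its libraries. LOX3 and LOX4, which also feed jasmonate synthesis, were both lower in roots than in leaves: LOX3 fell by 6.35 ± 0.66 and LOX4 fell by 3.40 ± 0.50 on the log2 scale (SE; adjusted p = 2.36e-06 and 4.63e-05). LOX6, the lipoxygenase known from roots and xylem, differed less, by -0.75 ± 0.10. Its CPM overlapped, at 34.1 to 56.5 in roots and 48.8 to 65.1 in leaves, and its call ended in 1 of 5 other settings.

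The allene oxide cyclases divided by organ. AOC2 ranged over 0.184 to 3.23 CPM in roots, with a median of 0.621, and over 291 to 752 CPM in leaves, with a median of 413. AOC1 followed it, at 0 to 4.37 CPM in roots and 45.3 to 292 CPM in leaves. AOC3 ran the other way, at 28.5 to 76.3 CPM in roots and 2.85 to 13.2 CPM in leaves, a log2 difference of 2.19 ± 0.21 (adjusted p = 1.25e-06). AOC4 was present in both, at 91.7 to 107 CPM in roots and 34.3 to 56.4 CPM in leaves. The 8 root and 8 leaf values of each of these genes did not overlap. Per exon length the order in roots was AOC4 with a median of 70.1 RPKM (CPM per kilobase of exon), AOC3 with 32.9, AOC2 with 0.478 and AOC1 with 0.378. In leaves it was AOC2 with 318 RPKM, AOC1 with 87.8, AOC4 with 35.4 and AOC3 with 4.40. AOC1, AOC2 and AOC3 lie next to each other on chromosome 3, and 97.8% of AOC1 and 98.4% of AOC3 exonic 50-base words occur once in the genome, so few reads could be shared among them.

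The shared steps were less divided. AOS, the first committed enzyme, ranged over 19.7 to 47.9 CPM in roots and 198 to 491 CPM in leaves, and OPR3, the reductase, over 23.5 to 44.998 CPM in roots and 45.4 to 117 CPM in leaves. AOS fell by 3.83 ± 0.15 and OPR3 by 2.08 ± 0.15 in roots relative to leaves on the log2 scale (adjusted p = 1.33e-10 and 4.83e-08). OPCL1 ranged over 20.7 to 60.4 CPM in roots, with a median of 41.96, and over 39.8 to 131 CPM in leaves, with a median of 75.3, and fell by 1.56 ± 0.13 (adjusted p = 1.56e-07). ACX1 differed by -0.15 ± 0.08 under TMM, short of the threshold (adjusted p = 0.0858). Its CPM, without TMM, was higher in roots, at 101 to 131 against 75.4 to 97.5 in leaves, so its direction depends on the scaling. JAR1 was higher in roots, at 129 to 176 CPM in roots and 45.7 to 63.6 CPM in leaves, a log2 difference of 0.96 ± 0.05 (adjusted p = 1.50e-09). COI1 stood at 54.7 to 77.3 CPM in roots and 24.9 to 46.4 CPM in leaves, without overlap in CPM, which is not TMM-scaled. Under TMM it rose by 0.51 ± 0.05 (adjusted p = 1.57e-06), a difference of the size that depends on the scaling. MYC2, at 93.4 to 187 CPM in roots and 44.7 to 154 CPM in leaves, rose by 0.39 ± 0.14 (adjusted p = 0.0238) with ranges that overlap, and its call ended in 7 of 16 fits that leave 1 library out. COI1 and MYC2, like JAZ10 and JAZ12, overlap exons of a gene on the opposite strand, and the strand setting of the counting is not given in the sources used here, so a part of their reads could come from that neighbour. MYC4 was higher in roots as well, at 34.3 to 61.1 CPM in roots and 17.4 to 30.7 CPM in leaves.

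Among the 13 repressor genes, 4 were higher and 7 lower in roots than in leaves. JAZ4 was close to a root transcript, at 5.21 to 13.9 CPM in roots and 0 to 0.387 CPM in leaves, which is 22 reads over the 8 leaf libraries. JAZ9 and JAZ6 were leaf-rich, at 1.59 to 34.9 CPM and 17.0 to 66.7 CPM in roots against 78.9 to 200 CPM and 45.4 to 133 CPM in leaves. JAZ9 fell by 4.34 ± 0.34 in roots relative to leaves (adjusted p = 1.57e-07). JAZ1 rose by 0.49 ± 0.16 (adjusted p = 0.0139), with 45.2 to 132 CPM in roots and 28.5 to 67.9 CPM in leaves that overlap. JAZ12 fell by 1.03 ± 0.07 (adjusted p = 2.20e-08), at 45.6 to 64.5 CPM in roots with a median of 55.04 and 65.3 to 95.5 CPM in leaves with a median of 74.4. JAZ5, JAZ7, JAZ8 and JAZ10 were also called lower in roots and JAZ11 and NINJA higher; the calls of JAZ7, JAZ10 and NINJA ended in 1, 6 and 11 of 16 fits that leave 1 library out. JAZ2 and JAZ3 did not pass the threshold.

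Turnover and outputs were divided too. ST2A, the sulfotransferase of hydroxylated jasmonate, was higher in roots, at 13.8 to 41.0 CPM in roots and 0.892 to 18.8 CPM in leaves, a log2 difference of 1.99 ± 0.31 (adjusted p = 8.70e-05). CYP94B1, a cytochrome P450 that oxidises the hormone conjugate, had 1.94 to 18.97 CPM in roots and 0 to 0.966 CPM in leaves. CYP94B3, a P450 of the same step, did not pass the threshold, at 0.950 to 8.84 CPM in roots and 0 to 5.22 CPM in leaves. JRG21, a 2-oxoglutarate-dependent oxygenase of the group that removes free jasmonate by hydroxylation, had 0.228 to 0.598 CPM in roots and 5.97 to 84.1 CPM in leaves. AT5G05600 and AT2G38240, of the same group, were called lower in roots, at 12.5 to 39.8 CPM and 0 to 1.09 CPM in roots against 26.6 to 94.2 CPM and 0.216 to 18.9 CPM in leaves. AT3G11180, annotated as an oxygenase of the same kind, had 27 reads over the root libraries and 4 over the leaf libraries and was not tested.

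CORI3, a cystine lyase induced by the hormone, had 4 reads over all root libraries and 156 to 451 CPM in leaves. PDF1.2a had 2 reads over all root libraries and 4.06 to 48.4 CPM in leaves, and PDF1.2b had no read in roots. The factors above the defensins ran against them: ORA59 was higher in roots, at 7.88 to 14.8 CPM in roots and 1.58 to 7.67 CPM in leaves, a log2 difference of 0.91 ± 0.18 (adjusted p = 4.47e-04), and ERF1 by 1.27 ± 0.40 (adjusted p = 0.0103). VSP1 was called lower in roots, by 2.83 on the log2 scale (adjusted p = 1.25e-06), at 17.3 to 85.1 CPM in roots and 73.9 to 417 CPM in leaves. VSP2 stood at 72.8 to 186 CPM in roots and 64.9 to 322 CPM in leaves. It fell by 0.52 ± 0.15 in roots under TMM, and with library size alone the value turned to 0.04 (adjusted p = 0.778).

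**Figure D2:**
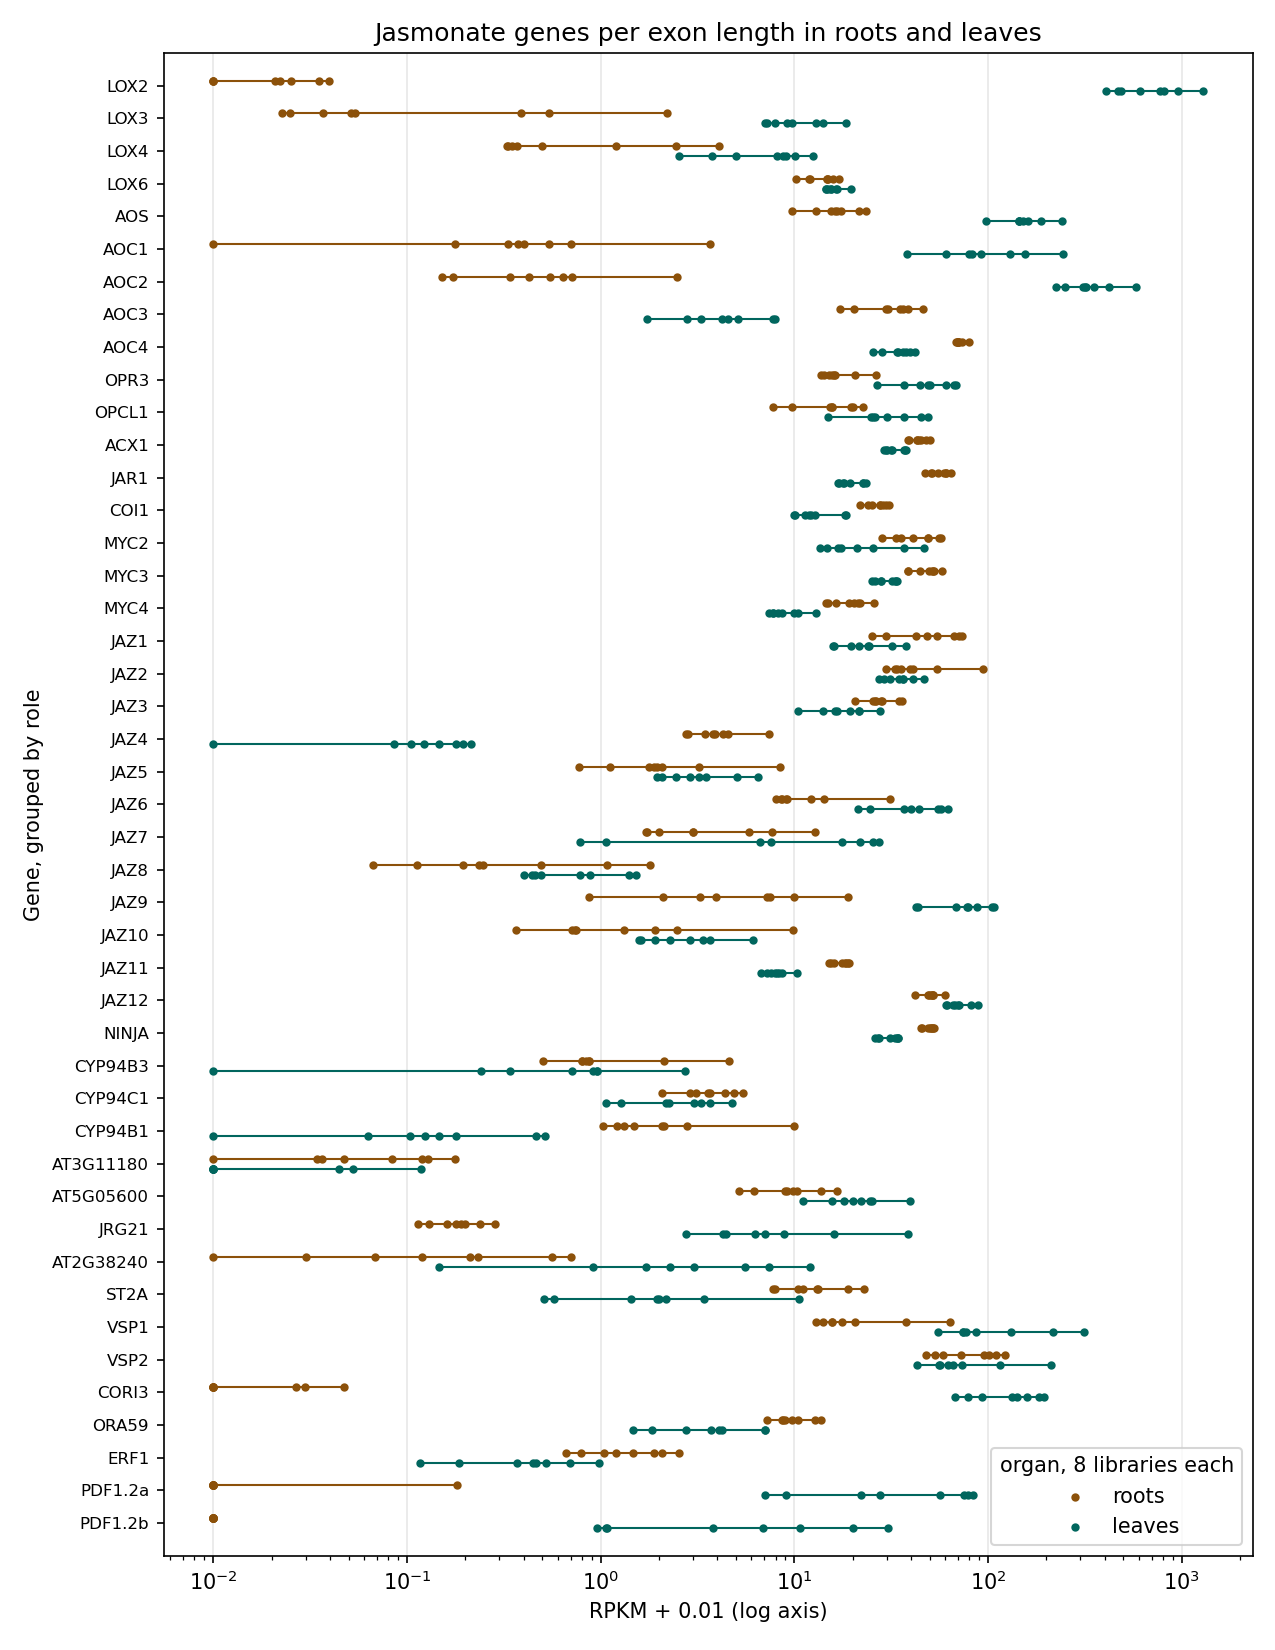
Level per exon length of each of the 45 jasmonate genes, as RPKM + 0.01 on a log axis, in 8 root libraries (brown, upper row of each gene) and 8 leaf libraries (green, lower row), with a line from the lowest to the highest library. AOC1 and AOC2 lie far to the right in leaves and AOC3, JAZ4 and CYP94B1 to the right in roots, while NINJA and ACX1 lie close together.

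In leaves the pair labelled EXS34, whose files are named for pho1-4, had the highest mean level of VSP1, VSP2, AOC1 and 6 of the 8 turnover genes, AT3G11180 on 4 reads, while the turnover genes CYP94C1 and CYP94B1 and the outputs CORI3 and PDF1.2a were highest in another pair. Both of its libraries lay above the 6 other leaf libraries for 10 of the 41 members tested, 24.4%, against 8.53% of all genes tested in leaves. These were VSP1, VSP2, AOC1, MYC4, JAZ10, JAZ11, JRG21, ST2A and the oxygenase loci AT5G05600 and AT2G38240. No member lay below the other 6 in both of its libraries, against 6.53% of all genes. The same 2 libraries also stood apart for the phosphate starvation transcript IPS1, at 149 and 80.001 CPM in leaves labelled EXS34, 7.83 and 12.04 in leaves labelled EXS32, 0.901 and 0.720 in leaves labelled KO, and 28.9 and 31.5 in leaves labelled Compl; its part in the jasmonate values was not tested.

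VSP1 and VSP2 encode vegetative storage proteins with acid phosphatase activity and are standard reporters of the MYC branch. VSP1 was at 417 and 291 CPM in leaves labelled EXS34, 176 and 99.2 in leaves labelled EXS32, 99.2 and 73.9 in leaves labelled KO, and 103 and 117 in leaves labelled Compl. VSP2 was at 322 and 176 CPM in leaves labelled EXS34, 111 and 85.2 in leaves labelled EXS32, 99.5 and 64.9 in leaves labelled KO, and 94.7 and 85.3 in leaves labelled Compl. For both genes the EXS34-labelled pair was high and did not overlap the rest; the KO-labelled pair had the lowest mean for VSP1, and the other 3 pairs overlapped for VSP2. VSP1 rose by 2.01 ± 0.34 on the log2 scale in leaves labelled EXS34 relative to those labelled KO (adjusted p = 0.0318) and by 1.66 ± 0.34 relative to those labelled Compl (adjusted p = 0.0272). VSP2 rose by 1.44 ± 0.36 relative to Compl-labelled leaves (adjusted p = 0.0472) and missed the threshold relative to KO-labelled leaves, at 1.57 ± 0.36 (adjusted p = 0.0662). By file name the comparison with KO-labelled leaves sets pho1-4 against the complemented line, and that with Compl-labelled leaves sets pho1-4 against EXS32.

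AOC1 showed the same split, at 292 and 186 CPM in leaves labelled EXS34, 110 and 98.9 in leaves labelled EXS32, 72.4 and 45.3 in leaves labelled KO, and 155 and 94.7 in leaves labelled Compl. The KO-labelled pair was the lowest, and AOC1 rose by 2.00 ± 0.37 in leaves labelled EXS34 relative to it (adjusted p = 0.0400). ST2A was at 18.8 and 6.05 CPM in leaves labelled EXS34, 3.48 and 0.892 in leaves labelled EXS32, 3.86 and 1.01 in leaves labelled KO, and 3.56 and 2.54 in leaves labelled Compl. JAZ10, a repressor quickly induced by the hormone, was at 13.5 and 8.07 CPM in leaves labelled EXS34, 6.38 and 3.57 in leaves labelled EXS32, 7.47 and 3.46 in leaves labelled KO, and 5.04 and 4.23 in leaves labelled Compl. In both genes the EXS34-labelled libraries were the highest, but they differed widely from each other. Neither passed the test: relative to KO-labelled leaves the log2 difference was 2.32 ± 0.85 for ST2A (adjusted p = 0.183) and 0.96 ± 0.42 for JAZ10 (adjusted p = 0.227). JRG21, at 84.1 and 35.0 CPM in leaves labelled EXS34 against 5.97 to 19.1 CPM in the 6 other leaf libraries, missed it against Compl-labelled leaves at 2.24 ± 0.63 (adjusted p = 0.0640). CYP94B3 was at 5.22 and 1.82 CPM in leaves labelled EXS34, 1.74 and 0.446 in leaves labelled EXS32, 1.35 and 0 in leaves labelled KO, and 1.83 and 0.634 in leaves labelled Compl, with overlap. CYP94C1, a P450 that oxidises the conjugate further, ran against these, at 4.34 and 2.12 CPM in leaves labelled EXS34, 7.35 and 6.60 in leaves labelled EXS32, 6.05 and 9.50 in leaves labelled KO, and 4.52 and 2.54 in leaves labelled Compl. CORI3 was at 369 and 309 CPM in leaves labelled EXS34, 422 and 325 in leaves labelled EXS32, 451 and 183 in leaves labelled KO, and 215 and 156 in leaves labelled Compl. The EXS34-labelled pair lay with the Compl-labelled pair at the low end for CYP94C1 and inside the range of the other pairs for CORI3, and neither gene was called in a leaf comparison.

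Counted by comparison, 5 of 41 members were called between leaves labelled EXS34 and KO, against 6.41% of all genes, of which 3.27% were called higher and 3.14% lower: AOC1, VSP1 and ORA59 rose, and COI1 and JAZ7 fell. Between leaves labelled EXS34 and Compl 7 members were called, against 18.4% of all genes, with 9.55% called higher, and all 7 rose: AOC4, MYC3, JAZ6, JAZ7, JAZ9, VSP1 and VSP2. Between leaves labelled EXS34 and EXS32 only JAZ7 was called, against 5.69% of all genes. As shares of the 41 members these counts are 12.2%, 17.1% and 2.44%. The calls of VSP1 and AOC1 ended without any 1 of the libraries of the pairs compared, and that of VSP2 without any but replicate 2 of EXS34, with adjusted p up to 0.176 for VSP1 and 0.181 for AOC1 against KO-labelled leaves and up to 0.192 for VSP2.

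JAZ7, a repressor that carries its own EAR repression motif, was called in 5 of the 6 leaf comparisons. It was at 6.26 and 5.45 CPM in leaves labelled EXS34, 20.9 and 14.5 in leaves labelled EXS32, 18.0 and 22.6 in leaves labelled KO, and 0.869 and 0.634 in leaves labelled Compl. The EXS32-labelled and KO-labelled pairs were high and overlapped, the EXS34-labelled pair lay between, and the Compl-labelled pair was lowest. JAZ7 rose by 4.71 ± 0.30 on the log2 scale in leaves labelled KO relative to Compl (adjusted p = 3.47e-05), by 4.51 ± 0.30 in leaves labelled EXS32 relative to Compl (adjusted p = 4.84e-05) and by 2.90 ± 0.34 in leaves labelled EXS34 relative to Compl (adjusted p = 8.02e-04). It fell by 1.81 ± 0.21 in leaves labelled EXS34 relative to KO and by 1.61 ± 0.22 relative to EXS32 (adjusted p = 0.00269 and 0.00675). These 5 calls held whichever single library was left out. By file name, the pair with little JAZ7 is EXS32 and the 2 pairs with most are EXS34 and the complemented line. In roots JAZ7 was at 10.5 and 1.40 CPM in EXS34, 1.43 and 1.65 in EXS32, 4.78 and 2.45 in KO and 6.31 and 2.46 in Compl, with overlap, and was not called.

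JAZ6 and JAZ9 were low in the same pair, labelled Compl and named EXS32 in its files. JAZ6 was at 93.9 and 133 CPM in leaves labelled EXS34, 117 and 122 in leaves labelled EXS32, 78.1 and 85.4 in leaves labelled KO, and 52.2 and 45.4 in leaves labelled Compl. JAZ9 was at 200 and 147 CPM in leaves labelled EXS34, 194 and 144 in leaves labelled EXS32, 162 and 127 in leaves labelled KO, and 80.4 and 78.9 in leaves labelled Compl. Relative to Compl-labelled leaves, JAZ6 rose by 1.18 ± 0.15 in leaves labelled EXS34, 1.28 ± 0.15 in leaves labelled EXS32 and 0.73 ± 0.15 in leaves labelled KO, and JAZ9 by 1.09 ± 0.21, 1.07 ± 0.21 and 0.85 ± 0.21 in the same pairs (adjusted p = 9.90e-04 to 0.0273 over the 6 values). The JAZ6 calls for EXS34-labelled and EXS32-labelled leaves held whichever library was left out. The other 4 ended without 1 or both Compl-labelled libraries or 1 of the pair set against them, with adjusted p up to 0.135. Under the file names the EXS32 minus Compl values of JAZ6 and JAZ9 are -0.73 and -0.85.

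Both libraries of leaves labelled Compl, whose files are named for EXS32, lay below the 6 other leaf libraries for 13 of 41 members, 31.7%, against 15.7% of all genes. The 13 were LOX4, AOS, AOC4, OPR3, OPCL1, MYC3, JAZ2, JAZ3, JAZ6, JAZ7, JAZ8, JAZ9 and JAZ12, and no member lay above in both libraries, against 14.9% of all genes. AOS was at 382 and 308 CPM in leaves labelled EXS34, 295 and 329 in leaves labelled EXS32, 491 and 295 in leaves labelled KO, and 294 and 198 in leaves labelled Compl. OPR3 was at 114 and 76.2 CPM in leaves labelled EXS34, 117 and 85.7 in leaves labelled EXS32, 103 and 83.6 in leaves labelled KO, and 63.1 and 45.4 in leaves labelled Compl. Compl-labelled leaves were lowest for both, for AOS by a margin of under 1 CPM, and neither gene was called in any leaf comparison. LOX4, at 11.5 and 7.71 CPM in leaves labelled Compl against 15.2 to 37.8 CPM in the 6 others, rose by 1.56 ± 0.37 in leaves labelled KO and 1.68 ± 0.37 in leaves labelled EXS32 (adjusted p = 0.0300 and 0.0313). Both calls ended without either Compl-labelled or either KO-labelled library, and the second also without replicate 1 of EXS32, at 1.32 to 1.88 and 1.35 to 2.00 (adjusted p up to 0.148).

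In leaves labelled KO relative to Compl, which by file name is the complemented line relative to EXS32, 11 of 41 members were called, against 21.1% of all genes. Of the 11, 10 were higher, against 10.5% of all genes, and 1 was lower, against 10.6%. The 11 are 26.8% of the members tested. The 10 were LOX4, AOC4, OPCL1, JAR1, COI1, MYC2, MYC3, JAZ6, JAZ7 and JAZ9, and the 1 was ORA59. In leaves labelled EXS32 relative to Compl 7 were called, against 14.8% of all genes, with 8.34% called higher and 6.51% lower: LOX4, AOC4, JAZ3, JAZ6, JAZ7 and JAZ9 rose and COI1 fell. COI1 differed by -0.33 there (adjusted p = 0.0484), a call that ended in 6 of 8 fits that leave 1 library out, with adjusted p up to 0.216, and in 5 of 6 other settings. In leaves labelled EXS32 relative to KO, JAR1 and COI1 fell and no other member was called, against 5.93% of all genes called and 2.41% called lower. The JAR1 difference there was -0.41 (adjusted p = 0.0466), and its call ended in 6 of 8 fits that leave 1 library out, with adjusted p up to 0.237. By file name these comparisons are EXS34 relative to EXS32 and EXS34 relative to the complemented line. The median log2 difference of the 41 members was 0.63 for EXS34-labelled against Compl-labelled leaves, 0.33 for KO-labelled and 0.25 for EXS32-labelled against Compl-labelled leaves, while the medians of all genes lay between -0.02 and 0.01; the 3 comparisons share the Compl-labelled libraries.

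Of the called genes, OPCL1 was at 98.5 and 69.8 CPM in leaves labelled EXS34, 80.7 and 68.0 in leaves labelled EXS32, 131 and 119.99 in leaves labelled KO, and 66.3 and 39.8 in leaves labelled Compl. AOC4 was at 56.4 and 50.7 CPM in leaves labelled EXS34, 45.4 and 52.9 in leaves labelled EXS32, 49.1 and 46.1 in leaves labelled KO, and 34.3 and 38.2 in leaves labelled Compl. OPCL1 was highest in the KO-labelled pair, and both genes were lowest in the Compl-labelled pair without overlap. MYC3, an activator beside MYC2, was at 87.1 and 82.5 CPM in leaves labelled EXS34, 72.2 and 71.9 in leaves labelled EXS32, 86.2 and 85.5 in leaves labelled KO, and 67.4 and 64.5 in leaves labelled Compl. JAZ3 was at 53.2 and 45.5 CPM in leaves labelled EXS34, 76.1 and 59.6 in leaves labelled EXS32, 59.6 and 44.6 in leaves labelled KO, and 28.7 and 38.5 in leaves labelled Compl. The Compl-labelled pair was again lowest for both. Relative to it, the calls of OPCL1, AOC4, MYC3 and JAR1 in KO-labelled leaves, of AOC4 and JAZ3 in EXS32-labelled leaves and of AOC4 and MYC3 in EXS34-labelled leaves each ended in 2 to 5 of 8 fits that leave 1 library out.

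COI1 and MYC2 were highest in leaves labelled KO, whose files are named for the complemented line. COI1 was at 30.0 and 28.3 CPM in leaves labelled EXS34, 25.4 and 24.9 in leaves labelled EXS32, 45.8 and 46.4 in leaves labelled KO, and 32.2 and 30.6 in leaves labelled Compl. It rose by 0.55 ± 0.09 in leaves labelled KO relative to Compl and fell by 0.87 ± 0.09 in leaves labelled EXS32 relative to KO (adjusted p = 0.00352 and 0.00288), and both calls held whichever library was left out. It also fell by 0.68 ± 0.09 in leaves labelled EXS34 relative to KO (adjusted p = 0.00478), a call that ended without either KO-labelled library. MYC2 was at 68.97 and 57.0 CPM in leaves labelled EXS34, 83.7 and 48.5 in leaves labelled EXS32, 154 and 121 in leaves labelled KO, and 55.04 and 44.7 in leaves labelled Compl. The KO-labelled pair was high and the other 3 pairs overlapped in part, with a rise of 1.46 ± 0.28 in leaves labelled KO relative to Compl (adjusted p = 0.0169). That call ended without replicate 1 of the KO-labelled pair or either Compl-labelled library, with values of 1.29 to 1.63 over the 8 fits that each leave 1 library out (adjusted p up to 0.100). JAR1 was at 61.5 and 53.0 CPM in leaves labelled EXS34, 45.7 and 48.5 in leaves labelled EXS32, 61.5 and 63.6 in leaves labelled KO, and 49.2 and 46.2 in leaves labelled Compl.

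ORA59 and the defensins, of the other output branch, were on average not low in the Compl-labelled pair. ERF1, with 1 to 12 reads a leaf library, had its lowest mean there, at 0.140 CPM against 0.441 to 0.734 in the other pairs. PDF1.2b was at 12.3 and 2.32 CPM in leaves labelled Compl, against means of 0.646 to 11.3 CPM in the other pairs. ORA59 was at 4.58 and 7.67 CPM in leaves labelled EXS34, 2.997 and 4.01 in leaves labelled EXS32, 2.00 and 1.58 in leaves labelled KO, and 7.65 and 4.44 in leaves labelled Compl. PDF1.2a was at 15.98 and 45.5 CPM in leaves labelled EXS34, 4.06 and 32.8 in leaves labelled EXS32, 12.8 and 5.25 in leaves labelled KO, and 48.4 and 43.4 in leaves labelled Compl. ORA59 was lowest in the KO-labelled pair, and PDF1.2a was highest on average in the Compl-labelled pair, which was among the low pairs for VSP1. The EXS34-labelled pair was above the KO-labelled pair for ORA59 as for VSP1. ORA59 fell by 1.76 ± 0.36 in leaves labelled KO relative to Compl (adjusted p = 0.00864) and rose by 1.72 ± 0.36 in leaves labelled EXS34 relative to KO (adjusted p = 0.0247). The first ended without replicate 2 of KO or replicate 1 of Compl, at -2.09 to -1.31, and the second without either KO-labelled library or replicate 2 of EXS34, at 1.33 to 2.04. By file name the low ORA59 pair is the complemented line, so ORA59 is then higher in pho1-4 than in the complemented line, by the same 1.72. PDF1.2a was called in no leaf comparison, and its libraries differed by more than 2-fold within 3 of the 4 pairs. JAZ1, at 57.7 and 35.4 CPM in leaves labelled EXS34, 43.8 and 29.0 in leaves labelled EXS32, 67.9 and 43.4 in leaves labelled KO, and 39.1 and 28.5 in leaves labelled Compl, overlapped across the pairs and was not called.

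**Figure D3:**
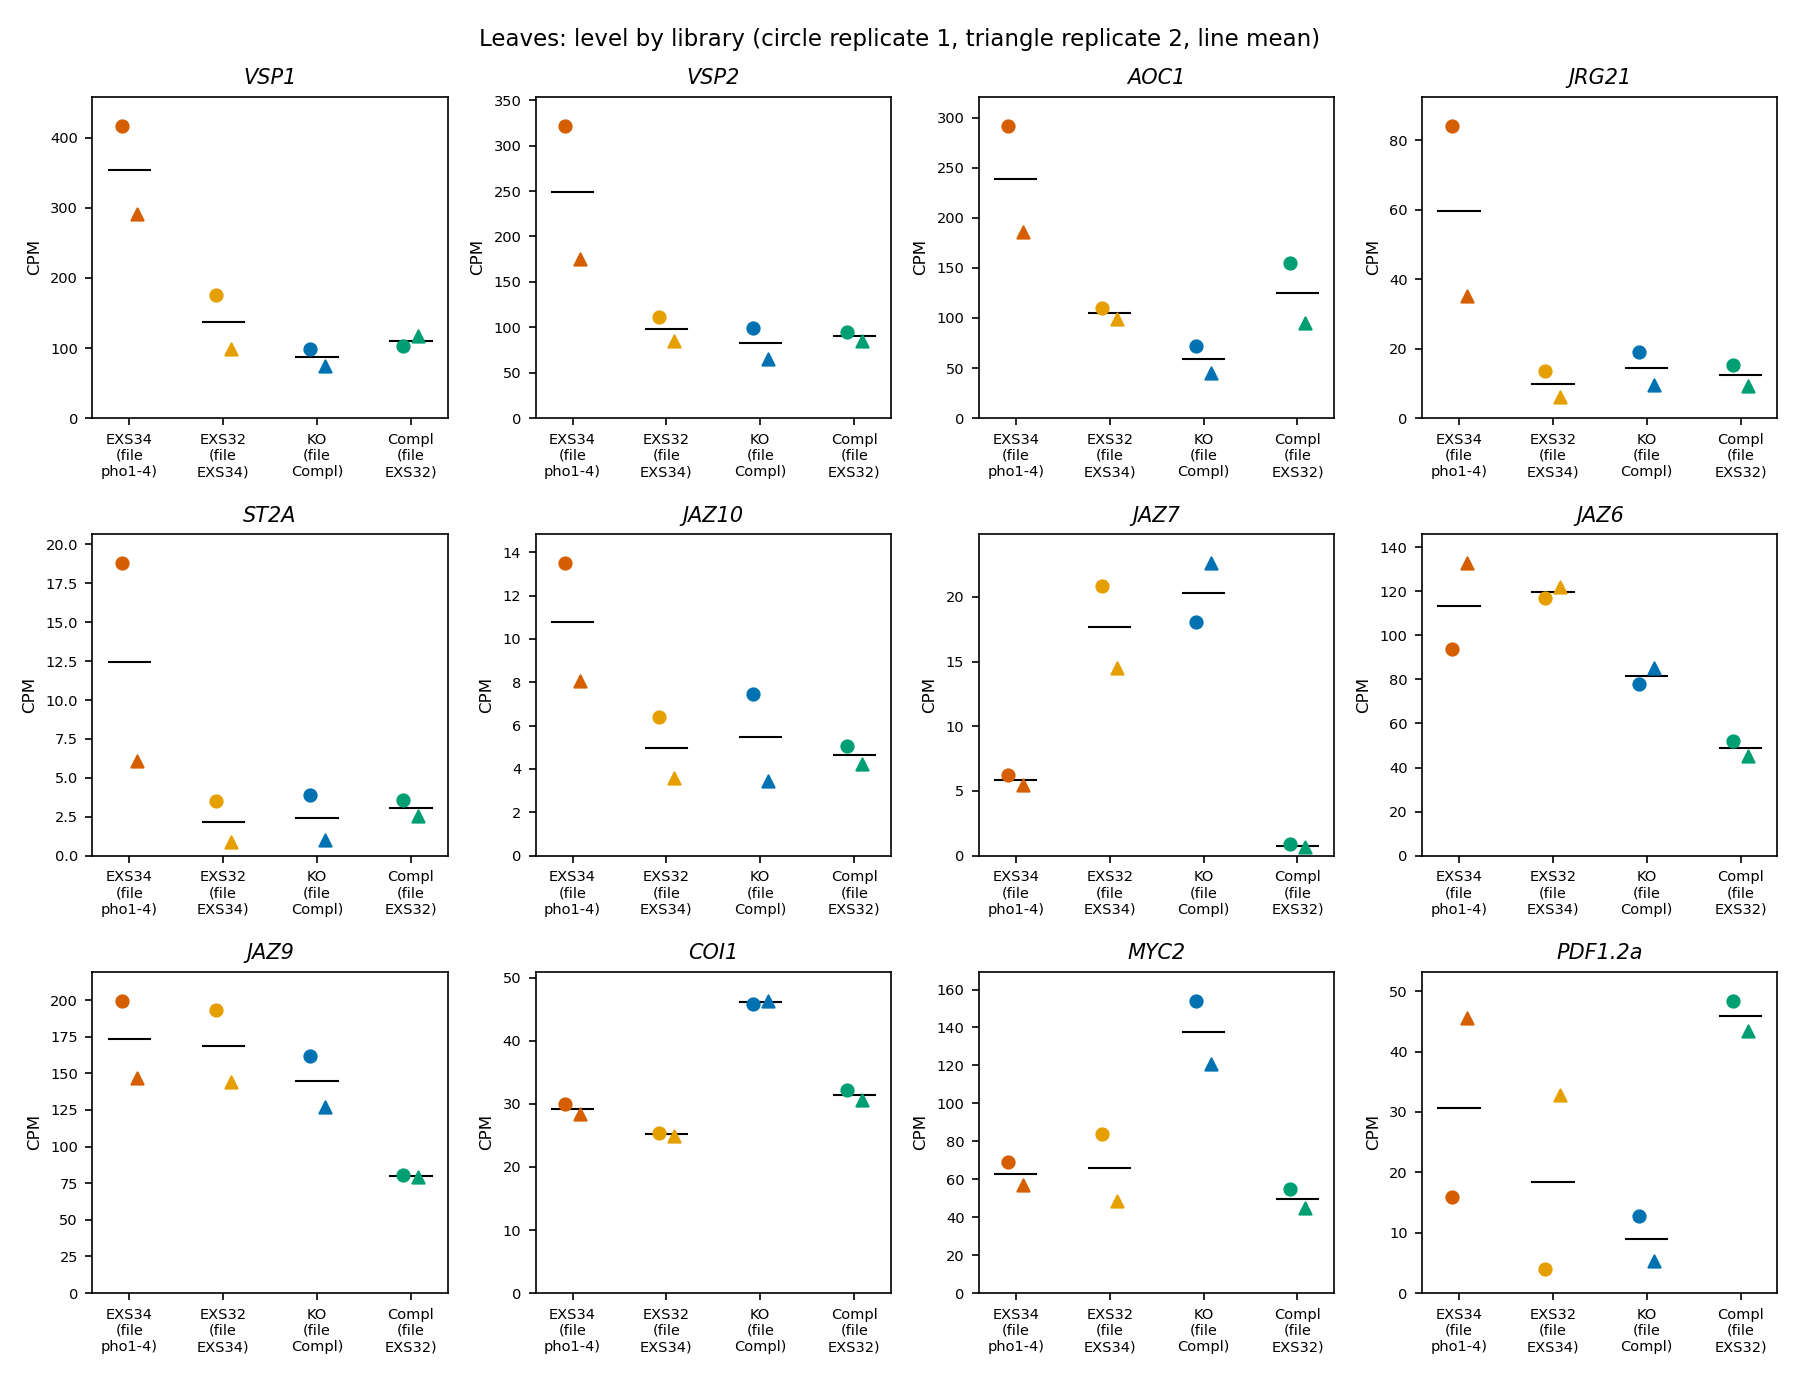
CPM of 12 jasmonate genes in each leaf library by labelled genotype, with the genotype in the file name in parentheses; circles are replicate 1, triangles replicate 2 and the black line their mean, and each axis starts at 0. The EXS34-labelled pair lies above the others for VSP1, VSP2, AOC1, JRG21, ST2A and JAZ10, the Compl-labelled pair lies below for JAZ7, JAZ6 and JAZ9, and the KO-labelled pair lies above for COI1 and MYC2.

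Replicate 1 was higher than replicate 2 in all 4 leaf pairs for 22 of 41 members, 53.7%, against 8.32% of all genes tested in leaves. The reverse order held for 0 members, against 10.1% of all genes. In roots 1 of 40 members, 2.5%, had replicate 1 higher in every pair, against 4.87% of all genes tested in roots. The reverse order held there for 1 member, against 8.56% of all genes. The 22 include LOX2, LOX3, AOC1, OPR3, MYC2, JAZ1, JAZ10, ST2A and VSP2. The labels do not say what a replicate number marks, so what the leaf replicates 1 share was not tested. ST2A, for one, differed by 3.104-fold between the EXS34-labelled, 3.90-fold between the EXS32-labelled, 3.83-fold between the KO-labelled and 1.41-fold between the Compl-labelled leaf libraries.

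In roots, EXS32 held the lowest levels of several synthesis and turnover genes. The 5 root markers summed to 377 and 395 CPM in EXS32 roots, also the lowest, against 456 to 755 CPM in the 6 other root libraries. Most of the spread lay in 2 of them, NRT2.1 at 34.4 to 501 CPM and IRT1 at 64.6 to 306 CPM over the root libraries. CASP1 ranged over 102 to 169 CPM, EXPA7 over 41.2 to 67.7 and COBL9 over 39.8 to 73.2. The part of these markers in the jasmonate values was not tested. Both EXS32 libraries lay below the 6 other root libraries for 11 of 40 members tested, 27.5%, against 11.8% of all genes tested in roots. These were AOS, AOC3, OPR3, OPCL1, MYC2, JAZ1, JAZ4, JAZ8, CYP94C1, CYP94B1 and VSP1. Between EXS32 and Compl roots 8 of 40 members were called, against 12.4% of all genes, with 5.1% called higher and 7.27% lower: AOS, AOC3, OPCL1, JAZ1, CYP94C1 and CYP94B1 fell, and AOC1 and MYC4 rose.

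AOC3, the main root cyclase beside AOC4, was at 49.2 and 58.6 CPM in EXS34 roots, 28.5 and 33.8 in EXS32 roots, 64.3 and 50.8 in KO roots, and 60.7 and 76.3 in Compl roots. OPCL1 was at 41.9 and 40.9 CPM in EXS34 roots, 20.7 and 26.0 in EXS32 roots, 60.4 and 42.0 in KO roots, and 53.4 and 52.1 in Compl roots. JAZ1, the founding repressor of the family, was at 98.2 and 87.4 CPM in EXS34 roots, 45.2 and 53.4 in EXS32 roots, 128 and 76.4 in KO roots, and 120 and 132 in Compl roots. In all 3 genes EXS32 roots were low without overlap and the other 3 groups were closer to each other. AOC3 fell by 1.19 ± 0.17, OPCL1 by 1.23 ± 0.19 and JAZ1 by 1.41 ± 0.24 on the log2 scale in EXS32 roots relative to Compl roots (adjusted p = 0.00950, 0.0109 and 0.0140). These 3 calls ended only without either EXS32 library, with adjusted p up to 0.111. Relative to KO roots the EXS32 differences of the same genes were -0.86 ± 0.17, -1.11 ± 0.19 and -1.03 ± 0.23 and did not pass the threshold (adjusted p = 0.120, 0.0976 and 0.163).

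AOS was at 32.9 and 31.4 CPM in EXS34 roots, 19.7 and 26.3 in EXS32 roots, 47.9 and 33.6 in KO roots, and 35.5 and 43.8 in Compl roots, and fell by 0.83 ± 0.21 in EXS32 relative to Compl (adjusted p = 0.0434), at -1.04 to -0.62 when libraries were left out, with the call ended by 6 of the 8. CYP94C1 was at 9.76 and 7.18 CPM in EXS34 roots, 4.15 and 5.77 in EXS32 roots, 7.35 and 6.21 in KO roots, and 10.9 and 8.78 in Compl roots. CYP94B1 was at 2.81 and 4.02 CPM in EXS34 roots, 2.30 and 1.94 in EXS32 roots, 2.50 and 3.95 in KO roots, and 18.97 and 5.32 in Compl roots. CYP94C1 fell by 1.04 ± 0.25 in EXS32 relative to Compl (adjusted p = 0.0383), a call that ended without replicate 1 of Compl, either EXS32 library or either KO library, at -1.28 to -0.80. CYP94B1 was high in replicate 1 of Compl, the library that stands apart: it fell by 2.58 ± 0.60 in EXS32 relative to Compl (adjusted p = 0.0356), and by 1.33 without that library. Its call ended in 5 of 8 fits that leave 1 library out, namely without that library, either EXS32 library or either EXS34 library. It also ended in 2 of 6 other settings. AOC1 was at 0.829 and 4.37 CPM in EXS32 roots against 4 and 0 reads in the Compl root libraries, so its rise rests on few reads, and MYC4 rose by 0.47 ± 0.12 (adjusted p = 0.0496); neither call held when libraries were left out.

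The other 5 root comparisons called no jasmonate gene in edgeR's quasi-likelihood test. In KO relative to Compl roots 0 of 40 were called, against 0.884% of all genes, with 7 at an unadjusted p under 0.05 and 5 called by DESeq2, which called 5.97% of all genes it adjusted. In EXS32 relative to KO roots 0 were called, against 0.126% of all genes, with 11 at an unadjusted p under 0.05 and 5 called by DESeq2, which called 2.63% of all genes it adjusted. In EXS34 relative to KO roots 0 were called, against 0% of all genes, with 3 at an unadjusted p under 0.05 and 0 called by DESeq2, which called 0.399% of all genes it adjusted. In EXS34 relative to Compl roots 0 were called, against 0.131% of all genes, with 6 at an unadjusted p under 0.05 and 2 called by DESeq2, which called 3.02% of all genes it adjusted. In EXS34 relative to EXS32 roots 0 were called, against 0.908% of all genes, with 11 at an unadjusted p under 0.05 and 5 called by DESeq2, which called 5.12% of all genes it adjusted.

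VSP2 was at 145 and 186 CPM in EXS34 roots, 80.8 and 110 in EXS32 roots, 167 and 153 in KO roots, and 88.6 and 72.8 in Compl roots. EXS34 and KO roots were high and did not overlap EXS32 and Compl roots, and the KO difference from Compl was 0.91 ± 0.19 (adjusted p = 0.0816). VSP1 was at 27.4 and 50.6 CPM in EXS34 roots, 18.8 and 17.3 in EXS32 roots, 21.0 and 23.7 in KO roots, and 85.1 and 21.0 in Compl roots, where replicate 1 of Compl alone was high. ST2A was at 23.4 and 14.2 CPM in EXS34 roots, 18.5 and 23.4 in EXS32 roots, 41.0 and 33.6 in KO roots, and 13.8 and 19.6 in Compl roots. KO roots were highest for ST2A without overlap, at 1.09 ± 0.27 relative to Compl (adjusted p = 0.108). In leaves the highest pair for VSP2 and ST2A is EXS34 by its labels and pho1-4 by its file names. Whether the same genotype is high in both organs thus cannot be told apart from the leaf naming. The phosphate starvation transcripts IPS1 and SPX1 summed to 167 and 260 CPM in KO roots and 55.5 and 39.5 in Compl roots. EXS34 and EXS32 roots lay at 117 to 179. In leaves the sums were 469 and 242 CPM in the pair labelled EXS34 and 12.3 and 14.2 in that labelled KO. The pairs labelled EXS32 and Compl lay at 25.8 to 58.1. By file name the highest leaf pair is pho1-4 and the lowest the complemented line. Which naming these sums follow was not tested.

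Of the remaining core genes in roots, JAR1 was at 129 and 150 CPM in EXS34 roots, 140 and 138 in EXS32 roots, 176 and 164 in KO roots, and 164 and 162 in Compl roots. COI1 was at 69.4 and 54.7 CPM in EXS34 roots, 69.4 and 71.9 in EXS32 roots, 74.8 and 77.3 in KO roots, and 60.1 and 62.9 in Compl roots. MYC2 was at 183 and 116 CPM in EXS34 roots, 93.4 and 110 in EXS32 roots, 161 and 162 in KO roots, and 187 and 136 in Compl roots. KO roots were the highest pair for JAR1 and COI1, EXS32 roots were the lowest for MYC2, and none was called. OPR3 was at 44.998 and 25.7 CPM in EXS34 roots, 23.5 and 24.2 in EXS32 roots, 35.1 and 27.4 in KO roots, and 26.8 and 27.8 in Compl roots. CYP94B3 was at 0.950 and 1.52 CPM in EXS34 roots, 1.52 and 1.65 in EXS32 roots, 4.08 and 1.66 in KO roots, and 8.84 and 1.59 in Compl roots, so its spread came from replicate 1 of KO and of Compl.

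**Figure D4:**
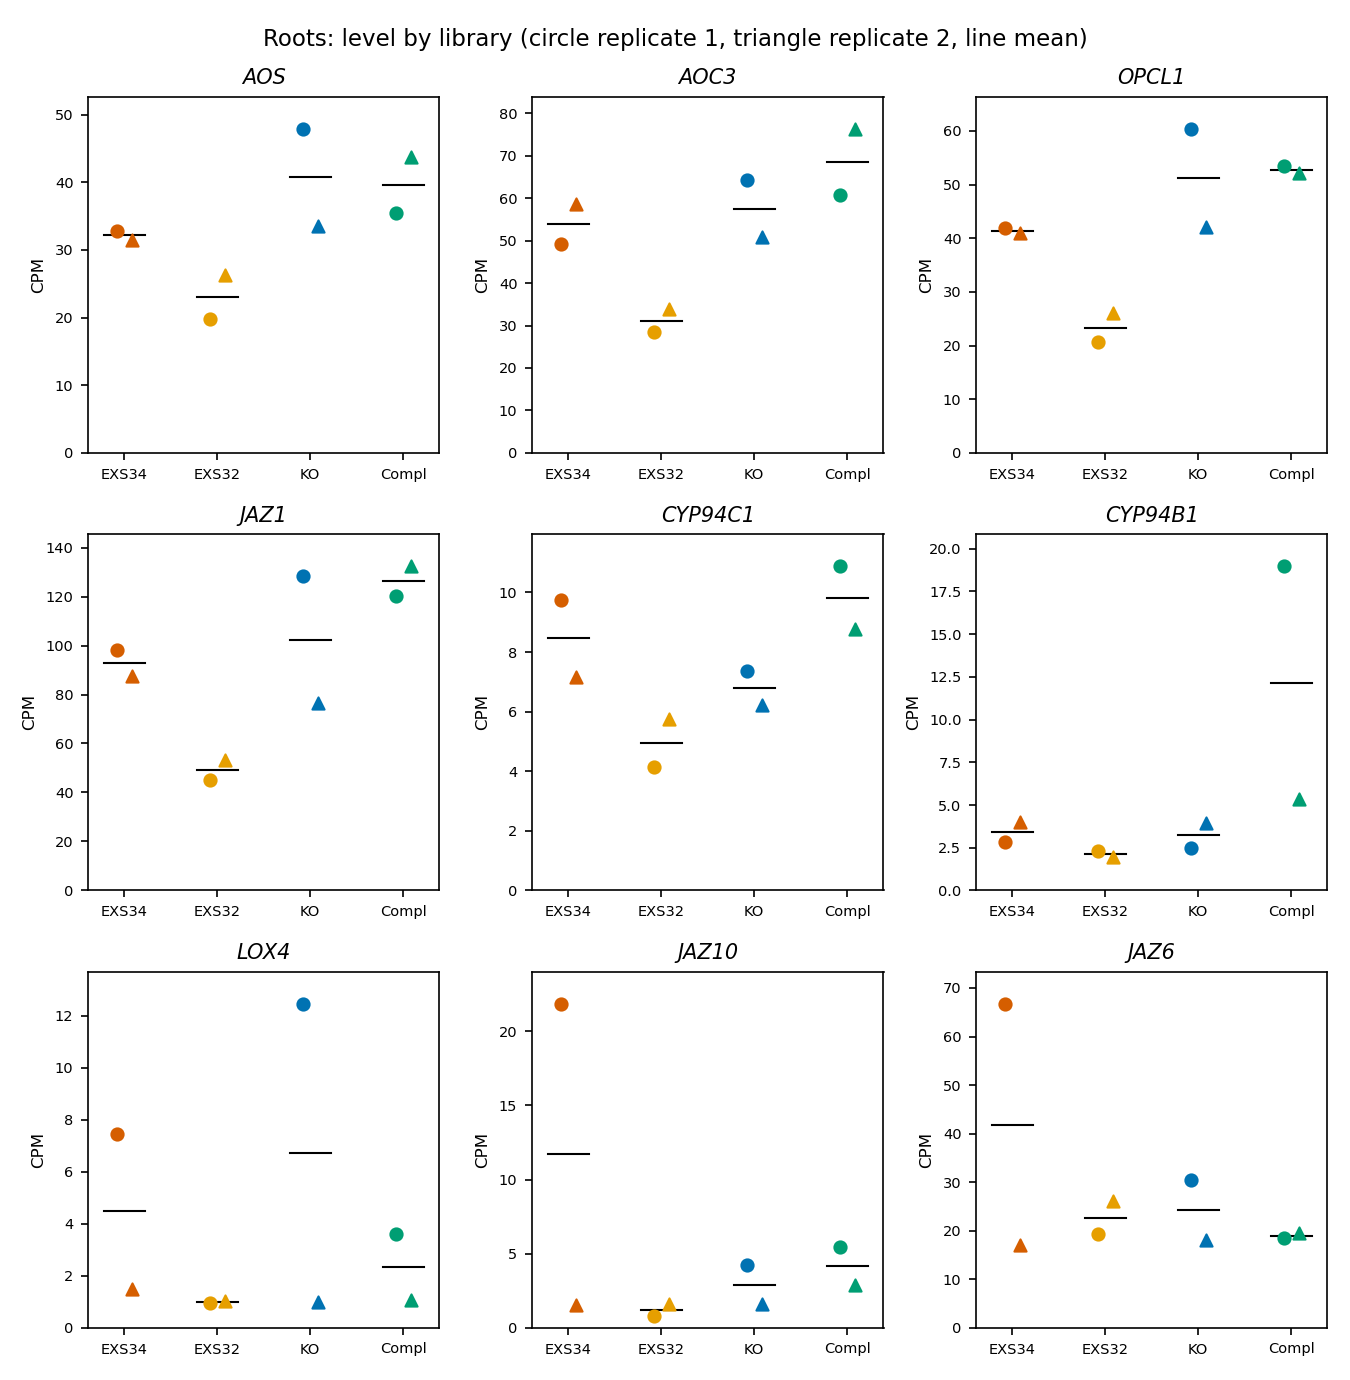
CPM of 9 jasmonate genes in each root library by genotype; circles are replicate 1, triangles replicate 2 and the black line their mean, and each axis starts at 0. EXS32 roots lie lowest for AOS, AOC3, OPCL1, JAZ1, CYP94C1 and CYP94B1, while LOX4, JAZ10 and JAZ6 differ more between the 2 libraries of EXS34 roots than between most groups.

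Jasmonate genes varied more between the 2 root libraries of a group than most genes did. In EXS34 roots 11 of 37 members with at least 20 reads in 1 library differed by more than 2-fold, 29.7%, against 3.95% of all genes. They were LOX3, LOX4, AOC2, JAZ2, JAZ5, JAZ6, JAZ7, JAZ8, JAZ9, JAZ10 and ERF1. JAZ10 was at 21.9 and 1.56 CPM in EXS34 roots, 0.783 and 1.61 in EXS32 roots, 4.22 and 1.62 in KO roots, and 5.46 and 2.91 in Compl roots. JAZ5 was at 18.9 and 4.17 CPM and JAZ6 at 66.7 and 17.0 CPM in EXS34 roots, again with replicate 1 high. In KO roots LOX3 was at 6.76 and 0.127 CPM and LOX4 at 12.5 and 0.987 CPM. The share over 2-fold was 24.3% in Compl roots against 6.52% of all genes, 13.9% in EXS32 roots against 1.58% and 13.9% in KO roots against 3.19%. In leaves it was 22.5% in the EXS34-labelled pair against 3.91% of all genes, 15.4% in the EXS32-labelled pair against 3.03%, 17.9% in the KO-labelled pair against 1.39% and 7.69% in the Compl-labelled pair against 2.01%. With 2 libraries a group, such spread widens the error of each of these genes.

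The KO difference from Compl was also compared between organs, as a difference of differences in 1 fit of all 16 libraries. Of 44 members 6 were called, 13.6%, against 13.4% of all genes, with 7.52% called higher and 5.85% lower. The members' share was thus close to the background. AOC4, OPCL1, MYC2, JAZ7 and CYP94C1 had a lower and ORA59 a higher KO minus Compl value in roots than in leaves. ORA59 was at 13.9 and 9.48 CPM in EXS34 roots, 7.88 and 11.4 in EXS32 roots, 14.8 and 9.74 in KO roots, and 10.5 and 9.33 in Compl roots, with overlap. AOC4 was at 93.8 and 93.7 CPM in EXS34 roots, 93.1 and 94.4 in EXS32 roots, 91.7 and 94.6 in KO roots, and 107 and 98.2 in Compl roots, where the Compl pair alone was higher. With leaf genotypes taken from the file names, 1 member was called, COI1, at 0.93 ± 0.15 (adjusted p = 0.0173), against 1.61% of all genes. The 2 namings thus share no called member, and the organ difference cannot be told apart from the leaf naming.

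A further list of 36 jasmonate-related genes, which holds other lipoxygenases, fatty acid desaturases, reductases, NAC and bHLH factors and outputs, had 27 members tested in roots and 34 in leaves. In roots 4 were called between EXS32 and Compl, 14.8% of the list against 12.4% of all genes: OPR1 and OPR2, reductases of the OPR3 family, and the basic chitinase CHIB fell, by 1.44 ± 0.25, 0.94 ± 0.20 and 1.77 ± 0.36, and the lectin gene AT3G15356 rose by 1.89 ± 0.28 (adjusted p = 0.0101 to 0.0261). None was called in the other 5 root comparisons by edgeR's test, in which 1 to 7 had an unadjusted p under 0.05. In leaves 8 were called between the pairs labelled EXS34 and Compl, 23.5% of the list against 18.4% of all genes, 7 between KO and Compl, 20.6% against 21.1%, and 5 between EXS32 and Compl, 14.7% against 14.8%. A further 4 were called between EXS34 and EXS32, 11.8% against 5.69%, 3 between EXS34 and KO, 8.82% against 6.41%, and 0 between EXS32 and KO, against 5.93%, where 6 had an unadjusted p under 0.05. FAD8, a plastid desaturase that makes the linolenic acid precursor, was at 85.4 and 82.0 CPM in leaves labelled EXS34, 83.3 and 93.01 in leaves labelled EXS32, 76.8 and 82.0 in leaves labelled KO, and 41.6 and 37.7 in leaves labelled Compl. The Compl-labelled pair alone was low, as for JAZ7, and FAD8 rose in the other 3 pairs relative to it by 1.05 ± 0.10, 1.14 ± 0.10 and 0.99 ± 0.10, in the same order (adjusted p = 3.07e-04, 1.57e-04 and 2.16e-04). The lectin gene AT3G15356, another output, ran the other way, at 73.1 and 80.8 CPM in leaves labelled EXS34, 34.4 and 35.4 in leaves labelled EXS32, 55.6 and 46.7 in leaves labelled KO, and 201 and 131 in leaves labelled Compl. It fell by 1.14 ± 0.19 in leaves labelled EXS34, fell by 2.26 ± 0.20 in leaves labelled EXS32 and fell by 1.70 ± 0.19 in leaves labelled KO, all relative to Compl (adjusted p = 0.00652, 4.53e-04 and 8.89e-04). PR4, a chitin-binding output, fell by 1.22 ± 0.29 in leaves labelled EXS32 relative to Compl (adjusted p = 0.0417), and rose by 1.66 ± 0.29 in leaves labelled EXS34 relative to KO and by 1.92 ± 0.29 relative to EXS32 (adjusted p = 0.0291 and 0.0225). CHIB, an ethylene and jasmonate output, rose by 1.97 ± 0.19 in leaves labelled EXS34 relative to KO and by 1.63 ± 0.19 relative to EXS32 (adjusted p = 0.00133 and 0.00498). ANAC055, a NAC factor downstream of MYC2, rose by 2.13 ± 0.37 in leaves labelled EXS34 relative to Compl and by 1.73 ± 0.35 relative to EXS32 (adjusted p = 0.00548 and 0.0255). By file name the EXS34-labelled pair of these comparisons is pho1-4, the KO-labelled pair the complemented line, the EXS32-labelled pair EXS34 and the Compl-labelled pair EXS32.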

How the data were processed

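Per the labels' protocols, the libraries were stranded and made from mRNA of roots and leaves. The authors deposited, for each library, a file of raw counts of reads by gene. The build was TAIR10, and HTSeq 0.5.4p3, TopHat2 2.0.9, cutadapt 1.2.1, limma, edgeR and R 3.1.1 are named, per the submitters' processing notes; the settings, strand included, were not given in the sources used here. Each file ends in 5 lines that name no gene; these were left out and took 7.26 to 7.77% of the reads in leaves and 8.57 to 10.26% in roots. The 2 libraries of a group differed beyond counting error (chi-square per degree of freedom 4.16 to 39.2), and each counted as 1 replicate.

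Groups follow the sample labels, and file names were tried for the leaf libraries as an alternative. Differences were tested per organ over 8 libraries by a robust quasi-likelihood fit (edgeR 4.0.16, R 4.3.3) without a replicate block, after TMM scaling. Low genes were removed by filterByExpr, at a minimum total of 15 and a minimum count of 10, which kept 20597 genes in roots and 18548 in leaves, and Benjamini-Hochberg adjusted p-values were called at 0.05. Organs and the difference of the KO effect between organs were tested in 1 fit of 16 libraries over 21351 genes. All adjusted p-values in the text come from that test unless DESeq2 1.42.0 is named, and each ± is a standard error obtained from the log2 estimate and the square root of its F value. Of the 45 jasmonate genes, 40 passed the filter in roots (not LOX2, AT3G11180, CORI3, PDF1.2a, PDF1.2b), 41 in leaves (not JAZ4, CYP94B1, AT3G11180, ERF1) and 44 over both organs. The fit was tested on simulated data before use.

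CPM is reads divided by the gene-assigned total, and RPKM divides it by the union of exons in RefSeq's TAIR10.1, which also gave symbols, coordinates and promoter sequence. At least 94.5% of the exonic 50-base words of each jasmonate gene occur once in that genome. Every called gene was named. Within an organ, values per library are given for up to 12 called genes per comparison, between organs ranges are given, and values per library are also given for LOX2, AOS, OPR3, JAR1, COI1, MYC2, JAZ1, JAZ10, CYP94B3, ST2A, VSP1, VSP2 and PDF1.2a; of the further 36 genes, up to 4 per comparison. Members, lists and alternatives were chosen with earlier results of these data known. Genes described beyond that rule for their within-group spread or their order among libraries were chosen after their values were seen. Figures were drawn with matplotlib.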

Additional observations from a re-analysis of the deposited data

Results flagged for a closer look

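For 6 of 44 jasmonate genes the KO minus Compl difference itself differed between organs in edgeR's quasi-likelihood test, with roots minus leaves as the direction. That is 13.6% of the members tested, close to the 13.4% of all genes called. JAZ7 differed by -5.07 ± 1.19 on the log2 scale (SE; adjusted p = 0.0189), from a KO minus Compl value of -0.35 in roots and 4.71 in leaves. CYP94C1 differed by -1.71 ± 0.49 (adjusted p = 0.0390), MYC2 by -1.53 ± 0.40 (adjusted p = 0.0302) and OPCL1 by -1.34 ± 0.35 (adjusted p = 0.0282). AOC4 differed by -0.60 ± 0.15 (adjusted p = 0.0205) and ORA59 by 2.01 ± 0.52 (adjusted p = 0.0255). Each of the 6 calls ended when some single library was left out, with adjusted p up to 0.0779 for JAZ7 and up to 0.153 for CYP94C1. None of the 6 was called when the leaf genotypes were taken from the file names, so the difference between organs cannot be told apart from the naming of the leaf libraries.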

How the results depend on the processing

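Counts of called jasmonate genes stayed within 1.5 times the reported ones under DESeq2 size factors and library size alone in all 14 comparisons. Without a filter on low counts the EXS34 minus KO count in leaves was 3, in place of 5. With only the groups compared in the fit, the counts were 4 for EXS32 minus Compl, 1 for EXS32 minus KO and 1 for EXS34 minus EXS32 in roots, and 4 for EXS32 minus KO in leaves. DESeq2 called 5 in KO minus Compl, 5 in EXS32 minus KO, 2 in EXS34 minus Compl and 5 in EXS34 minus EXS32 in roots, and 4 each in EXS32 minus KO and EXS34 minus EXS32 in leaves. The cause of these shifts was not tested.

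Same-numbered replicates deviated together with correlations of -0.251 to 0.219 in roots and 0.036 to 0.335 in leaves. The main fit did not take the numbers to pair the samples. In leaves, however, every correlation was positive, and replicate 1 was higher in all 4 pairs for 53.7% of members, against 8.32% of all genes. Leaf thresholds met or missed in the main fit therefore depend on leaving that shared order out of it. With the replicate number as a block, 4 members were called in EXS32 minus Compl roots, 10% against 10.8% of all genes in that fit. In leaves the block gave 8 in EXS32 minus KO (19.5% against 11.6%), 15 in EXS34 minus KO (36.6% against 10.5%), 23 in EXS34 minus Compl (56.1% against 23.0%) and 9 in EXS34 minus EXS32 (22% against 9.92%). It also gave 16 in KO minus Compl (39.0% against 25.6%) and 10 in EXS32 minus Compl (24.4% against 18.8%) in leaves. For the difference between organs it gave 9 (20.5% against 14.2%).

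Leaving out 1 library at a time gave 0 to 8 calls for EXS32 minus Compl in roots (0 without either EXS32 library, 3 without replicate 1 of Compl), 0 to 2 for KO minus Compl and for EXS34 minus Compl in roots, and 0 in the other 3 root comparisons. In leaves it gave 3 to 13 for KO minus Compl, 1 to 3 for EXS32 minus KO, 1 to 5 for EXS34 minus KO, 2 to 8 for EXS32 minus Compl, 2 to 9 for EXS34 minus Compl and 1 to 2 for EXS34 minus EXS32. It gave 36 to 38 for roots minus leaves and 1 to 8 for the difference between organs. Where 1 library of a group remained, it was assumed to vary like the other groups.

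Taking leaf genotypes from the file names renames the same pairs. The counts were then 5 for KO minus Compl, 7 for EXS32 minus KO, 1 for EXS34 minus KO, 11 for EXS32 minus Compl, 2 for EXS34 minus Compl, 7 for EXS34 minus EXS32 and 1 for the difference between organs. Values that changed sign, on the log2 scale, were in KO minus Compl LOX4 at -0.43, OPCL1 at -0.60, JAR1 at -0.15, COI1 at -0.68, MYC2 at -1.15, MYC3 at -0.041, JAZ7 at -1.81 and ORA59 at 1.72. In EXS32 minus KO COI1 was at 0.14. In EXS34 minus KO AOC1 was at -1.17, JAZ7 at 1.61, VSP1 at -1.34 and ORA59 at -0.76. In EXS32 minus Compl LOX4 was at -1.56, AOC4 at -0.39, JAZ3 at -0.63, JAZ6 at -0.73, JAZ7 at -4.71 and JAZ9 at -0.85. In EXS34 minus Compl MYC3 was at -0.25 and JAZ7 at -0.20, and in EXS34 minus EXS32 JAZ7 was at 4.51. For the difference between organs OPCL1 was at 0.50, MYC2 at 1.09, JAZ7 at 1.47, CYP94C1 at 0.67 and ORA59 at -1.47. Apart from these, VSP2 in roots minus leaves changed sign under library size alone, to 0.043.

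With 2 libraries a group and jasmonate genes that often differ 2-fold between them, a missed threshold does not show that values were alike. Leaf libraries are shallower, so genes such as JAZ8, ERF1 and CYP94B3, with 0 to 65 reads each, are measured least precisely there.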
